A study of Mus musculus with 10 samples.

Results

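The genes described are 47 adipocyte, lipogenic and thermogenic genes, read from whole-genome arrays of mouse abdominal aorta after elastase infusion. They were chosen by symbol, as every non-control gene name on the array equal to a listed member, and make up 47 of the 35527 gene names there. In 3 lists, 16 are genes of fat cells in general, 13 make or handle newly synthesised lipid, and 18 mark brown fat or serve thermogenesis. All 47 were tested, since each had aortic signal over background on 5 or more of the 10 arrays, and 39 had it on all 10.

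The arrays compared aneurysmal with control aorta in the porcine pancreatic elastase (PPE) model, in which elastase digests the elastic layers of the wall and the vessel dilates. Male C57BL/6J mice on a normal diet were operated on at 10 weeks of age, and the aorta from the left renal artery down to its bifurcation was filled for 5 min at 100 mmHg. In 5 mice the infusate was PPE at 1.5 U per mL and in 5 sham mice it was saline, and aortas were taken 7 days later. Each array carried 1 mouse's aortic RNA in red (Cy5) against a universal mouse reference RNA in green (Cy3), with no pooling and no dye swap. Surgery, pressure and the reference were shared by both groups, and there were no unoperated mice among these arrays.

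The abdominal aorta lies in a sleeve of perivascular fat that can hold white and brown-like adipocytes. White fat cells store triglyceride in droplets coated by perilipins and secrete adiponectin and leptin. Brown fat cells burn lipid in mitochondria, where UCP1 lets protons leak back without making ATP, under the control of noradrenaline, cyclic AMP and the coactivator PGC-1α. According to the study's methods, surrounding fat and connective tissue were dissected away under a microscope before freezing. The fat genes may read adipose tissue that stayed on a segment, or other cells that use the same genes. How much adipose tissue stayed was not measured, and which cells gave the signal was not tested. In bulk RNA, fewer cells of a type and less RNA per cell cannot be told apart.

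Values below are log2 ratios of aorta over reference on a loess-normalized array, and a change is the PPE mean minus the sham mean on that scale. Since each probe has its own ratio to the reference, only changes are set side by side between genes. A gene is called higher or lower at a limma adjusted p under 0.01, over 22520 gene names. The share of spots above background in red ran from 37.6% on sham 5 to 65.8% on PPE 1. Smooth muscle markers, which define the labelled tissue, were present, with 11 of 12 above background on all 10 arrays.

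Of the 47 genes, 30 were lower and 4 higher in PPE aorta, and 13 were not called. Ucp3 counts as higher by its brightest probe only, since its other probe had a change of the opposite sign. Across all genes tested 9.96% were called lower and 13.8% higher. The median change of the 47 was -1.28 against 0.02 for all genes, and 39 of the 47 were below 0. In 32 of the 47 the PPE and sham arrays did not overlap, against 25.5% of all genes. The arrays of slide 1 (1 sham, 2 PPE) and of slide 2 (2 sham, 2 PPE) each gave the same sign as the whole set for all 34 called genes.

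The calls depended on how the arrays were normalized. The authors' deposited log ratios, which did not pass through this loess fit, gave 4 higher and 28 lower. Their series matrix gave the same counts. It holds nearly the same values, with a median change of the 47 genes of -1.31 in both, and is not a separate check. Of all calls from those values 50.6% were higher. With each array only centred on its median, the median change of all genes was 0.41, and 98.1% of all calls were higher, against 58.1% after loess. Under that centring the 47 genes gave 0 higher and 2 lower, Fabp3 and Clstn3, with a median change of -0.59. At an unadjusted limma p under 0.05 the counts were 5 higher and 12 lower. Of the lower genes 8 were brown fat, 4 lipid synthesis and 0 general fat. The share of all genes at that unadjusted p was not taken, here or below, so such counts have no background beside them. The lipid synthesis and brown fat medians were then -1.02 and -1.13, and the general fat median was -0.14. With slide as a fixed block there were 4 higher and 31 lower. Sham 4, sham 5 and PPE 5 were each alone on a slide. Under that block, here and below, the change of a gene therefore rests on the arrays of slides 1 and 2 only.

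**Figure D1:**
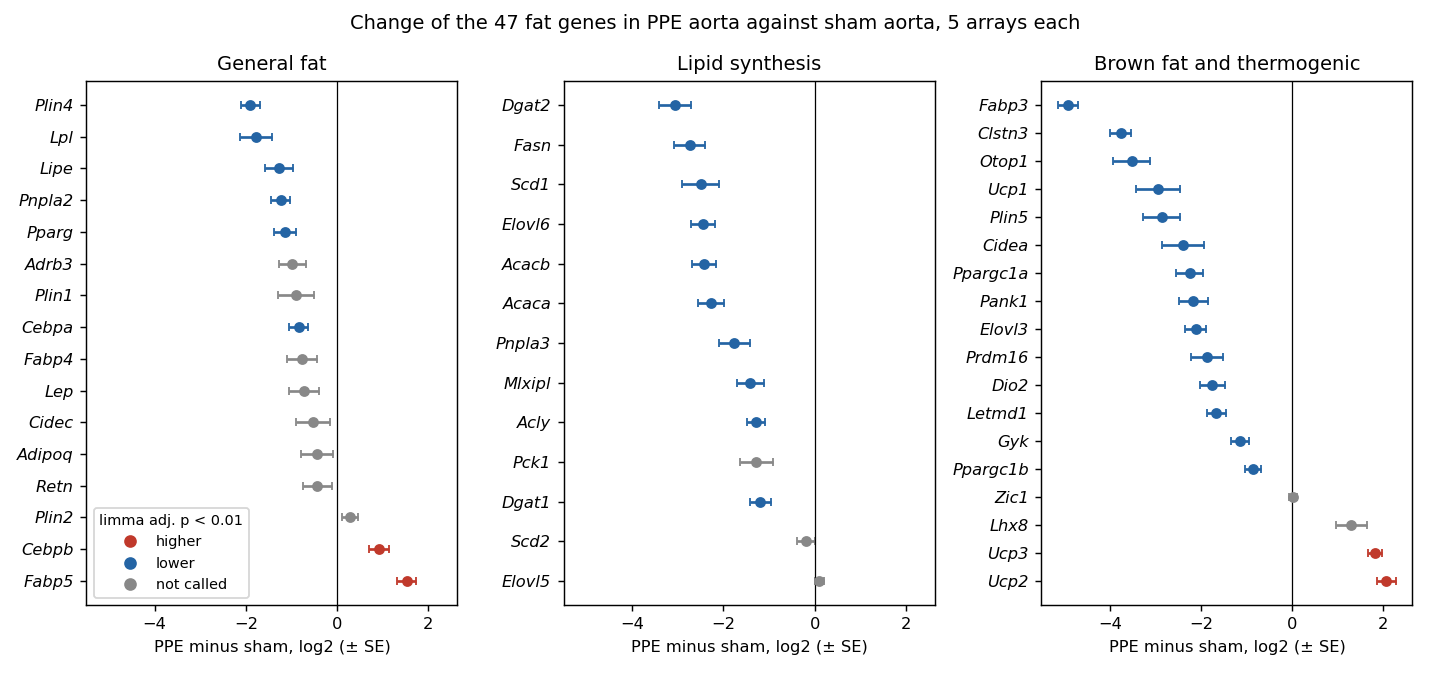
Change in log2 ratio, PPE minus sham, with its standard error (x axis) for each of the 47 genes (y axis) in 3 lists, from 5 arrays a group; red is higher, blue lower and grey not called at a limma adjusted p under 0.01. General fat genes lie mostly between -1.90 and 0.28, while most lipid synthesis and brown fat genes lie below -1.

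Several classical products of the mature fat cell were not called without a block. Adiponectin, leptin, resistin, perilipin 1, CIDEC, FABP4, the β3-adrenergic receptor and perilipin 2 made up the 8 of 16 general fat genes without a call, while 6 were lower and 2 higher. Across all genes tested 9.96% were called lower and 13.8% higher. At an unadjusted limma p under 0.05 the list had 10 lower and 2 higher genes. Its median change was -0.80. Groups did not overlap in 5 of the 16, a share near the 25.5% of all genes. Slide 1 alone was scanned on the second scan day. When the day of scanning was a fixed block, Lep (adjusted p = 0.00716), Cidec (0.00513), Plin1 (0.00085) and Adrb3 (0.000514) were also called lower. Under that block Adipoq (0.0992), Retn (0.0972), Fabp4 (0.0124) and Plin2 (0.321) were not.

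Adipoq, which encodes the fat cell hormone adiponectin, read 5.76, 5.30, 4.91, 6.25 and 5.53 on sham 1 to 5 and 5.61, 6.13, 4.51, 4.36 and 4.89 on PPE 1 to 5. PPE 1 and PPE 2 lay within the sham range and the other PPE arrays below it. Its change was -0.45 (SE 0.35, limma adjusted p = 0.365). PPE 1 and PPE 2 shared slide 1 with sham 1, and the difference was 0.11 within slide 1 and -0.67 within slide 2. Median centring turned the sign of the uncalled change to 0.35, and likewise for Retn (0.39), Cidec (0.30) and Fabp4 (0.13).

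Plin1, the perilipin that coats the white fat cell's lipid droplet, read 6.79, 5.71, 5.23, 6.25 and 6.08 in sham and 5.95, 6.06, 4.38, 4.72 and 4.47 in PPE. As with Adipoq, PPE 1 and PPE 2 were within the sham range and the other PPE arrays beneath it. Its change was -0.90 (SE 0.39, adjusted p = 0.0962), and with slide as a fixed block the adjusted p was 0.00385. The fall was smaller from the deposited log ratios (-0.20, limma adjusted p = 0.778) and after median centring (-0.04, adjusted p = 0.98). Fabp4, the fatty acid carrier of the adipocyte cytosol, read 8.21, 7.46, 7.28, 8.08 and 7.71 in sham and 7.60, 7.68, 6.31, 6.04 and 7.32 in PPE. The groups overlapped through PPE 1, PPE 2 and PPE 5, and the change was -0.76 (SE 0.33, adjusted p = 0.102). With slide as a fixed block its adjusted p was 0.00317.

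Lep, which encodes the satiety hormone leptin, read 2.39, 0.74, 1.20, 1.24 and 0.49 in sham and 0.54, 1.16, 0.46, 0.11 and 0.20 in PPE. It was near the detection limit, above background on 4 sham and 3 PPE arrays, and its change was -0.72 (SE 0.33, adjusted p = 0.113). Plin2, the perilipin of lipid droplets in many cell types, macrophages among them, read 1.19, 1.20, 1.23, 1.63 and 0.67 in sham and 1.71, 1.37, 1.05, 1.50 and 1.69 in PPE. The groups overlapped, and the change was 0.28 (SE 0.18, adjusted p = 0.277). Retn, which encodes resistin, and Cidec, a droplet fusion protein, had changes of -0.43 and -0.53, with -0.17 and -1.08 at their second probes. Adrb3, the β3-adrenergic receptor that starts lipolysis, had -0.98 (adjusted p = 0.0219), with -0.97 at a second probe (adjusted p = 0.118). Its adjusted p was 0.00176 with slide as a fixed block and 0.00478 without PPE 2.

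The 6 general fat genes that fell were the droplet protein gene Plin4, the lipase genes Lpl, Lipe and Pnpla2, and the adipogenic regulator genes Pparg and Cebpa. Plin4 read 6.09, 5.71, 5.32, 5.84 and 5.25 in sham and 3.62, 4.37, 3.47, 3.71 and 3.56 in PPE. Every PPE array was below every sham array, and the gene fell by 1.90 (SE 0.21, adjusted p = 3.4e-05), 3.72-fold lower. Lpl, the lipase on capillary walls that frees fatty acids from lipoproteins, read 4.88, 3.82, 4.21, 4.32 and 3.64 in sham and 2.59, 3.50, 1.82, 2.55 and 1.49 in PPE. The groups did not overlap and the change was -1.78 (SE 0.35, adjusted p = 0.0021), but a second Lpl probe gave -0.71 (adjusted p = 0.119).

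Pparg, the nuclear receptor that drives fat cell formation, read 3.02, 2.39, 2.55, 3.18 and 1.96 in sham and 1.31, 2.07, 1.27, 1.21 and 1.51 in PPE. Only PPE 2 reached into the sham range, above sham 5, and the change was -1.15 (SE 0.24, adjusted p = 0.00303). Pnpla2, which encodes the first lipase of stored triglyceride, fell by 1.24 (SE 0.21, adjusted p = 0.000727). Lipe, the hormone-sensitive lipase, fell by 1.27 (adjusted p = 0.00729) and Cebpa, a late adipogenic factor, by 0.84 (adjusted p = 0.00748). These last calls were weak. Lipe lost its call without sham 1, 2 or 4 or without PPE 1, 3, 4 or 5, with adjusted p between 0.0135 and 0.0223. Cebpa lost it without sham 2, 3 or 4 or without PPE 2, 3, 4 or 5, with adjusted p between 0.0105 and 0.0221.

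Of the 16 general fat genes 2 rose, Fabp5 and Cebpb, a share near the 13.8% of all genes called higher. Macrophages also use both genes, and their part in these values was not tested. Fabp5, a fatty acid carrier of skin and macrophages as well as fat, read -0.83, -0.83, -0.15, -0.65 and -0.82 in sham and 1.28, 0.49, 0.46, 1.40 and 0.75 in PPE. Every PPE array exceeded every sham array and the gene rose by 1.53 (SE 0.21, adjusted p = 0.000196). Cebpb, an early adipogenic factor that inflammation also induces, read 0.36, 0.08, 0.06, -0.18 and -0.50 in sham and 1.16, 0.17, 0.80, 1.16 and 1.14 in PPE. PPE 2 lay within the sham range, and the change was 0.92 (SE 0.22, adjusted p = 0.00591). Leaving out sham 2, 3, 4 or 5 or PPE 1, 3, 4 or 5 took its adjusted p to between 0.011 and 0.0175, and slide as a fixed block took it to 0.0745.

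**Figure D2:**
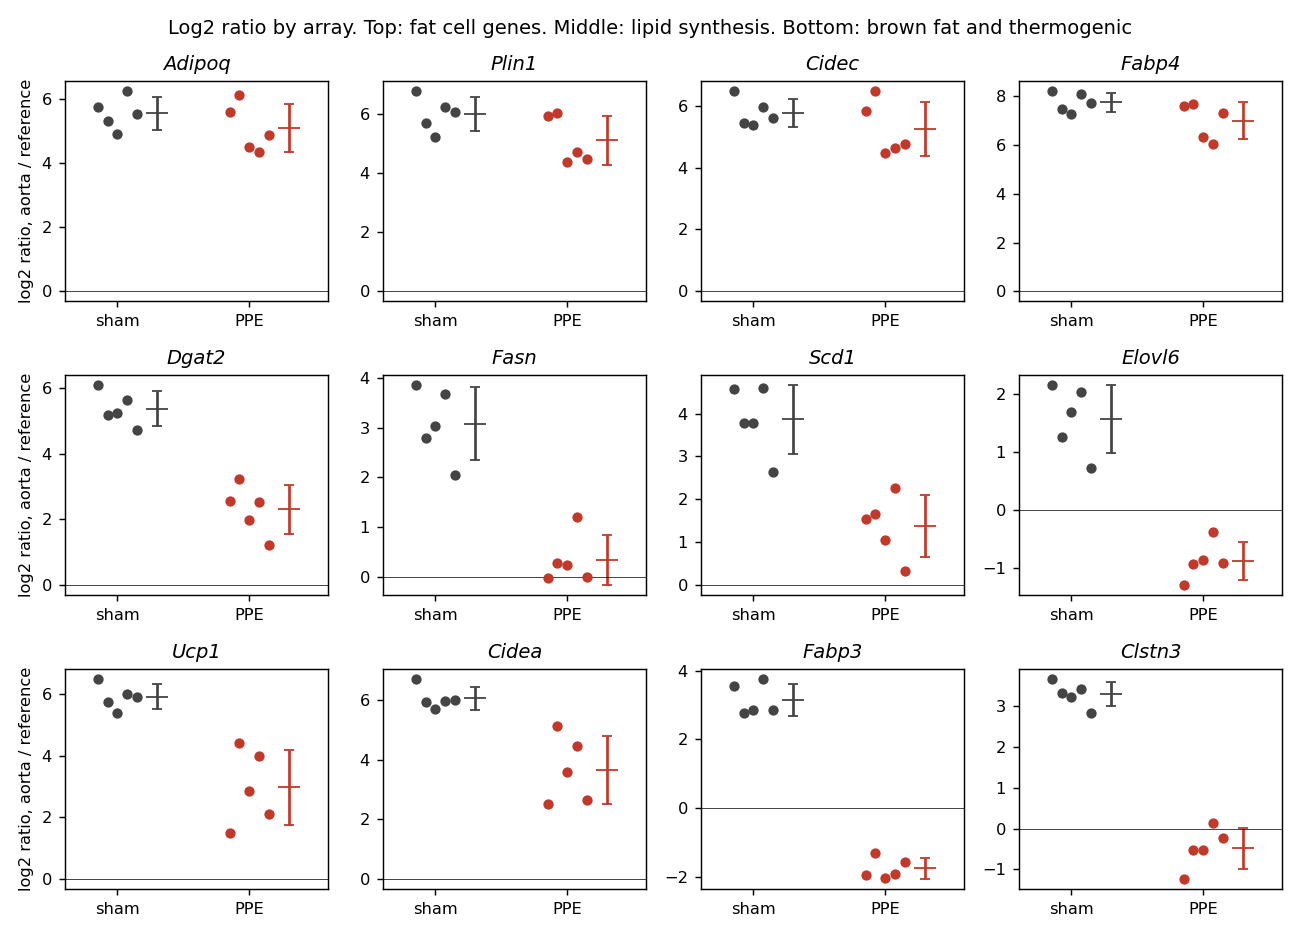
Log2 ratio of aorta over reference (y axis, own scale in each panel) on the 5 sham arrays (grey) and 5 PPE arrays (red), with group mean and SD beside the points, for 12 genes. In the top row the groups overlap, with PPE 1 and PPE 2 within the sham range, and PPE 5 also for Fabp4. In the lower rows every PPE array is below every sham array.

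Among lipid synthesis genes, those for citrate cleavage, malonyl-CoA and palmitate synthesis, desaturation by Scd1 and the last step of triglyceride assembly were lower. Of 13, 10 were lower, 0 were higher by limma, and the median change was -1.76. At an unadjusted p under 0.05 the count of higher genes was also 0. PPE and sham arrays were apart in 11 of 13, against 25.5% of all genes. The exceptions by call were Pck1, Scd2 and Elovl5.

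Fasn, fatty acid synthase, read 3.86, 2.79, 3.04, 3.68 and 2.04 in sham and -0.02, 0.27, 0.23, 1.20 and 0.00 in PPE. All PPE arrays were lower, with PPE 4 the nearest to sham, and the gene fell by 2.74 (SE 0.34, adjusted p = 8.94e-05), 6.68-fold. Upstream of it, Acly, which cuts citrate to acetyl-CoA, fell by 1.29 (adjusted p = 0.000438), with -0.43 at a second probe (adjusted p = 0.0283). The acetyl-CoA carboxylases Acaca and Acacb, which make malonyl-CoA, fell by 2.27 (SE 0.29) and 2.43 (SE 0.27). Of the other tested Acaca probes 1 gave -2.17 and 1 gave -0.77 (adjusted p = 0.0129), and a second Acacb probe gave -1.73. Downstream, Elovl6, which lengthens palmitate, fell by 2.45 (SE 0.26, adjusted p = 3.24e-05).

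Scd1, the desaturase that turns saturated into monounsaturated acyl chains, read 4.58, 3.77, 3.77, 4.59 and 2.63 in sham and 1.54, 1.67, 1.05, 2.26 and 0.33 in PPE. The groups were apart, with sham 5 and PPE 5 lowest in each, and the gene fell by 2.50 (SE 0.41, adjusted p = 0.00065). Its paralog Scd2 did not follow, with a change of -0.19 (SE 0.19, adjusted p = 0.494), which median centring turned to 0.63. Elovl5, which lengthens polyunsaturated chains, had 0.10 (SE 0.10, adjusted p = 0.52).

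Dgat2, which adds the last acyl chain of triglyceride, had the largest change of the list after loess. It read 6.09, 5.16, 5.24, 5.64 and 4.72 in sham and 2.56, 3.23, 1.99, 2.53 and 1.21 in PPE. The highest PPE array was below the lowest sham array, and the gene fell by 3.07 (SE 0.35, adjusted p = 4.99e-05), 8.38-fold. The second enzyme of that step, Dgat1, fell by 1.19 (SE 0.23, adjusted p = 0.00182). Pnpla3, a lipogenic acyltransferase and lipase, fell by 1.76 (adjusted p = 0.00166), though a second probe gave -1.08 (adjusted p = 0.189). Mlxipl, the carbohydrate-responsive factor ChREBP, fell by 1.41 (adjusted p = 0.00359), and its adjusted p was 0.0115 without sham 4 and 0.011 without PPE 3. Pck1, an enzyme gene on the route to glycerol phosphate in fat cells, had a change of -1.28 (adjusted p = 0.0156). Its groups did not overlap, and it was called without PPE 1 (0.00983) or PPE 2 (0.00572) and with slide as a fixed block (0.000406).

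Of 18 brown fat and thermogenic genes, 14 were lower and 2 higher. PPE and sham arrays were apart in 16, against 25.5% of all genes. The median change was -1.99 after loess, below that of lipid synthesis, but from the deposited LogRatio it was -1.58 against -2.29 for lipid synthesis. The lower genes took in the uncoupler, its regulators, droplet proteins and fatty acid handling, and the higher ones were Ucp2 and 1 of the 2 probes of Ucp3. With slide as a fixed block 11 were lower, against 9 of the 16 general fat genes.

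Ucp1, the proton channel that defines brown fat, read 6.51, 5.75, 5.39, 6.02 and 5.92 in sham and 1.49, 4.41, 2.85, 4.0 and 2.12 in PPE. Sham arrays lay close together (SD 0.41) while PPE arrays spread widely (SD 1.23), all of them below sham. The gene fell by 2.94 (SE 0.49, adjusted p = 0.000714), 7.70-fold. Its adjusted p was 0.0183 with slide as a fixed block and 0.0295 from the deposited LogRatio. Cidea, a droplet protein of brown fat, followed the same order of PPE arrays: 6.71, 5.93, 5.70, 5.95 and 5.99 in sham and 2.50, 5.13, 3.57, 4.46 and 2.63 in PPE. PPE 2 and PPE 4 were highest and PPE 1 lowest for both genes. Cidea fell by 2.40 (SE 0.46, adjusted p = 0.00169), with 0.0222 under the slide block and 0.0225 from the LogRatio.

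Among the regulators, Prdm16, which fixes the brown fat lineage, read 5.06, 4.61, 4.15, 5.04 and 3.64 in sham and 3.03, 3.42, 2.42, 2.72 and 1.61 in PPE. The groups did not overlap and it fell by 1.86 (SE 0.35, adjusted p = 0.00162). Ppargc1a, which encodes PGC-1α, read 1.55, 2.04, 1.25, 1.43 and 0.28 in sham and -1.61, -0.78, -1.02, -0.71 and -0.58 in PPE. Sham 5 was the nearest to PPE, and the gene fell by 2.25 (SE 0.30, adjusted p = 0.000137). Its relative Ppargc1b fell by 0.86 (adjusted p = 0.00328, and 0.0179 with the slide block), above background on 4 sham and 3 PPE arrays. Dio2, which makes active thyroid hormone inside brown fat cells, read 5.00, 4.01, 3.76, 4.05 and 4.07 in sham and 2.48, 3.20, 1.83, 2.63 and 2.02 in PPE. The groups were apart by call and by range, and Dio2 fell by 1.75 (SE 0.28, adjusted p = 0.000534).

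The largest change of all 47 genes under loess and under median centring was that of Fabp3, a fatty acid carrier of heart, muscle and brown fat. It read 3.55, 2.77, 2.85, 3.77 and 2.85 in sham and -1.95, -1.32, -2.04, -1.91 and -1.56 in PPE. The gap between the groups exceeded the range within either, and the gene fell by 4.91 (SE 0.22, adjusted p = 2.19e-07), 30.2-fold, with -4.76 at its second probe. After median centring it fell by 4.01 (adjusted p = 0.00655). Clstn3, whose locus also yields a short droplet protein of thermogenic fat (calsyntenin 3β), read 3.66, 3.32, 3.22, 3.40 and 2.83 in sham and -1.23, -0.52, -0.53, 0.13 and -0.24 in PPE. All PPE arrays were far below sham, and it fell by 3.76 (SE 0.23, adjusted p = 8.16e-07), or by 2.98 after median centring (adjusted p = 0.00769). Which transcript the Clstn3 probe reads was not tested.

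Otop1, a proton channel gene of brown fat, read 4.82, 3.75, 3.42, 4.49 and 2.38 in sham and -0.08, 0.67, 0.02, 0.73 and -0.07 in PPE. The groups did not overlap and it fell by 3.52 (SE 0.40, adjusted p = 4.61e-05), with -1.56 at a second probe. Elovl3, which makes very long chains when brown fat is recruited, read 2.57, 1.41, 1.56, 2.12 and 1.38 in sham and -0.56, -0.35, -0.33, -0.08 and -0.25 in PPE. It was above background on all 5 sham arrays and not well above background on any PPE array. On the red channel alone, set against the lowest signal well above background, it was at least 4.65-fold lower in PPE. The measured red-channel means, 8.49 and 6.12 on the log2 scale, differ 5.18-fold. These are open to dye bias and are not on the scale of the fitted ratio, which was 4.36-fold lower (adjusted p = 2.54e-05). Plin5, the perilipin that tethers droplets to mitochondria, fell by 2.86 (SE 0.41). Pank1, which starts coenzyme A synthesis, fell by 2.17, Letmd1, a mitochondrial protein gene of brown fat, by 1.66, and Gyk, glycerol kinase, by 1.15.

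Ucp2 was higher where Ucp1 was lower. Ucp2, a relative of UCP1 found widely in immune cells, read -1.21, -1.11, -0.95, -0.88 and -0.76 in sham and 1.65, 1.42, 0.65, 1.11 and 0.63 in PPE. No array overlapped, and Ucp2 rose by 2.07 (SE 0.20, adjusted p = 1.42e-05). For Ucp3, the relative found in muscle and brown fat, the brightest probe had a change of 1.82 (SE 0.16, adjusted p = 6.6e-06).

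The 2 probes of Ucp3 disagreed. The one that was called read -0.97, -0.74, -0.70, -0.64 and -0.76 in sham and 1.49, 0.97, 0.59, 1.25 and 0.96 in PPE. The other read 3.06, 1.77, 1.73, 2.81 and 0.59 in sham and 0.81, 0.92, 0.63, 0.61 and 0.39 in PPE, a change of -1.32 (adjusted p = 0.0207). The mean of the probes had an adjusted p of 0.409, so the direction of Ucp3 is not settled. On mm9 the called probe lies at chr7:107630399-107630458 and the other at chr7:107634291-107634350. They lie 17350 and 13458 bases from the Ucp2 probe on the same chromosome.

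Lhx8 and Zic1, developmental factors used as markers of brown fat, were not called. Lhx8 had a change of 1.30 (SE 0.34, adjusted p = 0.012) and was called without sham 1 (0.00823) or PPE 5 (0.00161) and with slide as a fixed block (0.002). It was above background on 3 sham and 5 PPE arrays. Zic1 had 0.02 (SE 0.09) and was above background on 3 sham and 4 PPE arrays.

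The 3 lists were then averaged on each array, relative to the sham mean of each gene. General fat stood at -0.33, -0.09, -1.06, -0.85 and -0.86 on PPE 1 to 5, against -0.29 to 0.50 in sham, so that PPE 2 lay within the sham range. Lipid synthesis stood at -1.71, -1.44, -1.88, -1.37 and -2.24 in PPE, and at -0.64 to 0.55 in sham. Brown fat stood at -1.77, -1.28, -1.75, -1.32 and -1.94 in PPE, and at -0.44 to 0.50 in sham. Every PPE array was below every sham array in these last 2 lists, while general fat separated the groups only in part. Sham 1 and sham 4 were the highest of the sham arrays in each list.

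Within an array, brown fat minus general fat was -1.44, -1.19, -0.69, -0.47 and -1.08 on PPE 1 to 5 and -0.15 to 0.14 in sham. Lipid synthesis minus general fat was -1.38, -1.35, -0.82, -0.52 and -1.38 in PPE and -0.35 to 0.22 in sham. Averaged over these lists, the brown and lipogenic members were thus further below their sham level than general fat genes on each of the 5 PPE arrays. No test was made of these scores, since the lists were assembled with results in view.

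**Figure D3:**
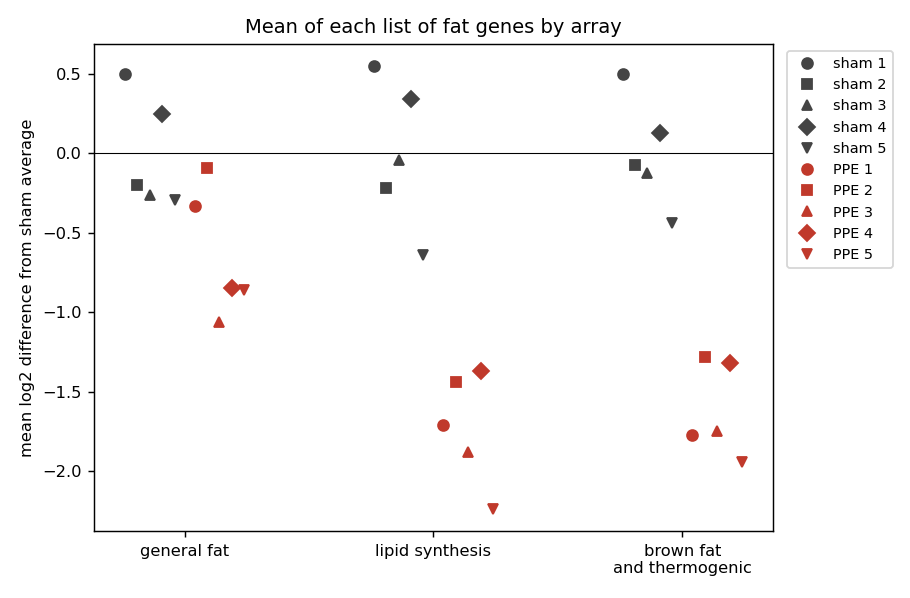
Mean over the genes of each list of the log2 difference from the gene's sham mean (y axis) on each array, sham in grey and PPE in red, with a marker for each array number. PPE arrays span -1.06 to -0.09 for general fat and lie at or below -1.28 for brown fat and at or below -1.37 for lipid synthesis.

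To set the genes against the amount of fat transcript on the same array, the ratio of each gene was taken relative to that of Adipoq, a comparison chosen after the values were seen. Such a difference shows unequal change only. After loess, 6 of 18 brown fat genes were below sham on every PPE array: Ucp1, Plin5, Fabp3, Elovl3, Otop1 and Clstn3. So were 1 of 13 lipid synthesis genes (Dgat2) and 1 of 15 general fat genes (Plin4), against 1.39% of all genes. After median centring the counts were 6, 3 and 1, against 1.28%. Ucp1 and Elovl3 then overlapped with sham while Prdm16, Ppargc1a, Fasn and Elovl6 did not. Above sham on every PPE array were Ucp2 and the brightest Ucp3 probe after loess, with 6.55% of all genes, and Ucp2 alone of these genes after median centring, with 2.66%.

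Relative to Adipoq, Fabp3 changed by -4.47 after loess and by -4.36 after median centring. Clstn3 changed by -3.32 and -3.33, Otop1 by -3.07 and -3.01, and Ucp1 by -2.50 and -1.91. These changes moved little with the scaling, apart from Ucp1. Subtracting Adipoq removes any shift shared by all genes of an array, so much of that agreement follows from the subtraction.

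**Figure D4:**
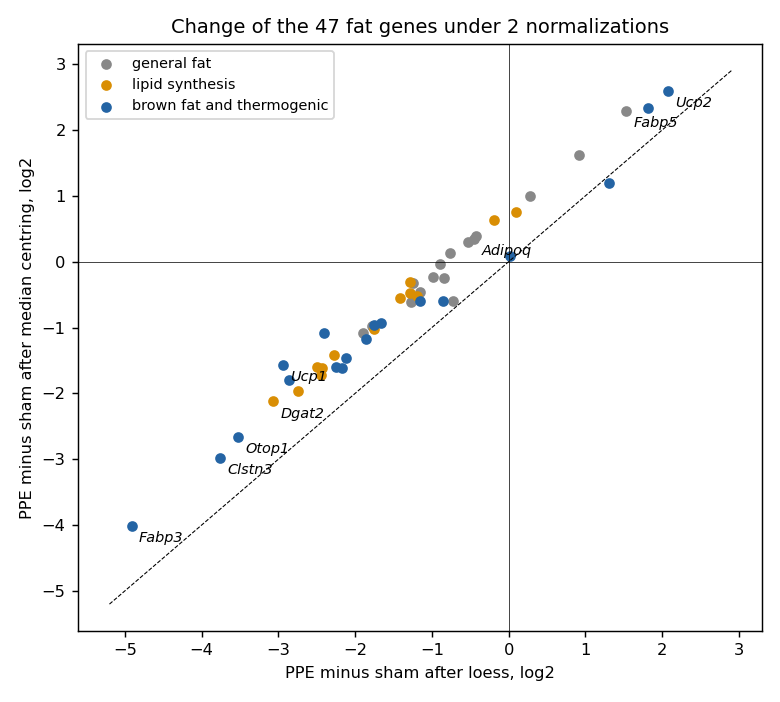
Change in log2 ratio, PPE minus sham, after median centring (y axis) against that after loess (x axis) for the 47 genes, coloured by list, with a dashed line of equal values. Most genes lie above the line, where median centring gave a higher value, and Fabp3 (-4.91 and -4.01) and Clstn3 (-3.76 and -2.98) remain lowest on both axes.

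Other genes of the same pathways, not members, did not repeat this order of the lists. Of 24 further general fat genes 12 were lower and 0 higher by limma (0 higher at an unadjusted p under 0.05), with a median of -0.97. The largest falls were in Agpat2 (-2.66, adjusted p = 6e-06), which makes the phosphatidic acid of triglyceride, and Acsl1 (-2.57), which activates fatty acids. Of 23 further lipid synthesis genes 8 were lower and 2 higher, with a median of -0.49. Me1, which supplies NADPH, fell by 2.10 and Acss2, which makes acetyl-CoA from acetate, by 2.03, while Acsl4 rose by 0.85 and Lpin2 by 0.83.

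Of 30 further brown fat genes 29 were tested, and 13 were lower and 2 higher, with a median of -0.91. Cox7a1, a cytochrome c oxidase subunit of muscle and brown fat, fell by 4.70 (SE 0.30), from 4.38 ± 0.39 in sham to -0.32 ± 0.68 in PPE (SD, n = 5 each). Slc27a2, a fatty acid transporter, fell by 3.95 (SE 0.46). Epsti1 rose by 1.86 and Gpr3, a receptor that raises cyclic AMP, by 0.55. On PPE 1 to 5 the further general fat genes averaged -0.92, -0.55, -1.38, -1.18 and -1.37 over their sham level. The further lipid synthesis genes averaged -0.49, -0.36, -0.59, -0.50 and -0.59, above general fat on every PPE array. The further brown fat genes averaged -1.12, -0.82, -1.28, -1.08 and -1.48, on either side of general fat. All calls in these further lists are at a limma adjusted p under 0.01.

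Markers of other cells moved with the groups. Of 12 smooth muscle markers 10 were lower (median -1.81) and of 12 macrophage markers 10 were higher (median 2.59), with list means on single arrays of -2.17 to -1.12 and 1.93 to 2.98 in PPE. In sham those means were -0.71 to 0.51 and -0.20 to 0.20. Of 12 preadipocyte and fibroblast markers 6 were higher and 0 lower by limma (0 lower at an unadjusted p under 0.05, median 0.88). Of 12 endothelial markers 0 were called by limma (median 0.15), with 2 higher and 0 lower at an unadjusted p under 0.05. Their part in the fat gene values was not tested.

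Skeletal muscle expresses Fabp3, Cox7a1 and Ucp3, and lies near the dissected segment. Its markers gave 1 lower and 0 higher by limma of 11 tested (1 and 0 at an unadjusted p under 0.05), with a median of -0.33. The marker means ran from -1.45 to 1.84 over the sham arrays and from -1.97 to 1.07 over the PPE arrays, a wider spread within groups than between them. The 1 called marker, Myh2, the myosin of oxidative fibres, fell by 3.84 (SE 0.57). Its part in the fall of Fabp3 was not tested.

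**Figure D5:**
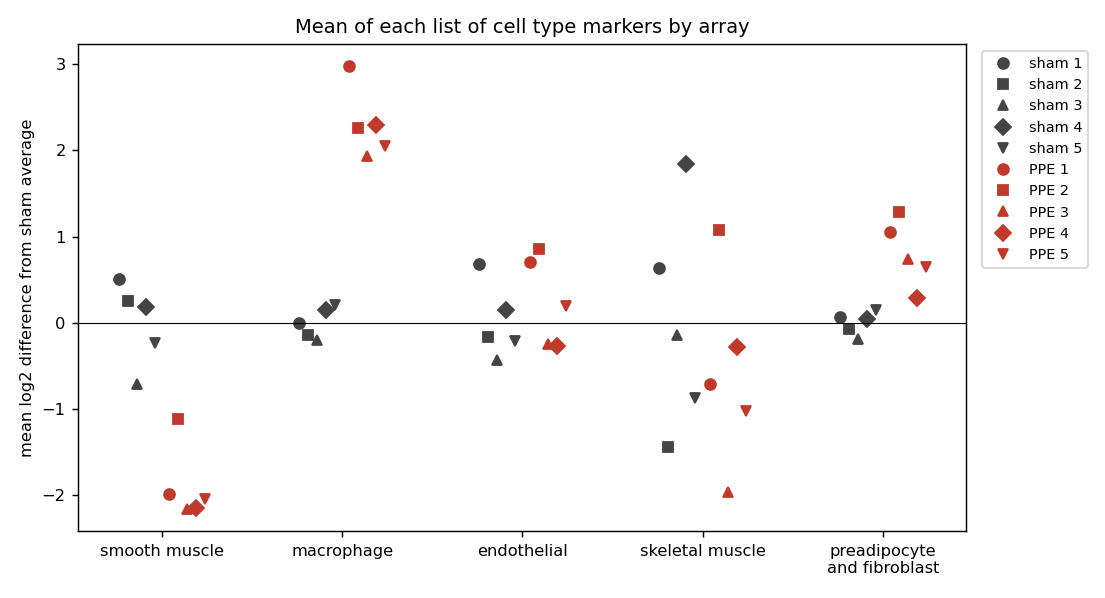
Mean over the tested genes of each marker list of the log2 difference from the gene's sham mean (y axis) on each array, sham in grey and PPE in red, with a marker for each array number. Smooth muscle and macrophage markers separate the groups in opposite directions, and skeletal muscle markers spread widely within both.

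Promoter sequence was taken from RefSeq for 35 of the 47 genes, in windows from 250 bases before to 50 after each listed start on GRCm38.p6, and searched on both strands. The cyclic AMP response element TGACGTCA is the site through which noradrenaline signalling reaches many thermogenic genes. It was found in 4 of the 35 (Clstn3, Dio2, Elovl5 and Pnpla3), and in 2.03% of 27025 genes. The 4 windows are shown because these genes differ in change, and capitals mark the element. Each is read along the gene's own strand, minus for Clstn3 and Dio2 and plus for the others.

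Clstn3 at chr6:124464767-124464796: cctggctgtgcTGACGTCAtcctgcagtag
Dio2 at chr12:90739115-90739144: ctctttctcaaTGACGTCAagatctttagc
Pnpla3 at chr15:84167759-84167788: ggggcctcagcTGACGTCAcccgaagacag
Elovl5 at chr9:77917357-77917386: ccgcgccattgTGACGTCAcggtcagccca

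The element centres 3 bases after the start of Clstn3, 7 after that of Elovl5, and at positions -92 and -43 from those of Dio2 and Pnpla3. Clstn3, Dio2 and Pnpla3 were lower in PPE (-3.76, -1.75 and -1.76), while Elovl5, with the same letters, had 0.10. A match of letters is a description and does not show that a factor binds.

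The C/EBP site TTGCNNAA, bound by the products of Cebpa and Cebpb, was found in 5 of 35 (Cidec, Dio2, Lep, Plin1 and Pparg) and in 12.2% of all genes. In Dio2 it lies beside the cyclic AMP element without overlapping it. Windows are shown for 4 fat cell genes, with the site in capitals, on the plus strand for Lep and Pparg and the minus strand for the others. Plin1 and Pparg each have another match, not shown, centred at positions -184 and -212. That other match in Pparg reads along the gene's own strand. In the Pparg window shown the site reads on the opposite strand, as TTTTGCAA.

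Lep at chr6:29060155-29060184: tggccggacagTTGCGCAAgtggcactggg
Plin1 at chr7:79732816-79732845: tctgagaggcaTTGCCCAAgattccctgga
Cidec at chr6:113434944-113434973: ggagggctctaTTGCTCAAgggcccatggg
Pparg at chr6:115422039-115422068: accaaccaatcTTTTGCAAgacatagacaa

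Of these 4 genes only Pparg was called. The E-box CACGTG, read by carbohydrate-responsive and other factors, was in 5 of 35 against 8.09% of genes. The sterol response site TCACNCCAC was in 2 (Mlxipl and Ucp2) against 1.44%. The core GGTCANAGG of the element bound by PPARγ with RXR and the extended half-site TCAAGGTCA of oestrogen-related receptors were in 0 of 35, against 2.02% and 0.466% of genes. Absence here says only that these letters are not in these windows.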

How the data were processed

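RNA from 10 infrarenal aortas (5 sham, 5 PPE, each a separate mouse) was hybridised at 500 ng against the reference. Spot values were made by the authors with Agilent Feature Extraction 10.7.3.1. According to the study's methods, arrays of poor quality were removed by the authors. Clustering and principal components analysis then served to settle the treatment groups and to drop outliers. Which arrays were removed is not stated. Arrays of a group may therefore lie closer together than unselected ones would, which was not tested. Spot signals and local backgrounds were deposited as linear intensity. Log10 ratios, red divided by green, were deposited beside them (LogRatio). The authors' series matrix holds log2 ratios, which equalled log2 of processed red over green on 100% of spots within 1e-04. Array medians there ran from -0.16 to 0.12, and no spot was saturated.

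In R 4.3.3 with limma 3.58.1, mean signals were corrected by normexp with offset 50, which draws dim ratios towards 0, and normalized by loess within arrays. Control and outlier spots (176 to 331 per array) were left out and spots of a probe averaged. Probes entered the test when red was well above background on 5 or more of 10 arrays. A gene is its brightest tested probe. Groups were compared with lmFit and eBayes, two-sided and unpaired, with Benjamini-Hochberg adjustment over 22520 genes and a threshold of 0.01. The study's permutation method, which rests on relabelled samples, was not run. The fit was tested on simulated data. For a gene whose groups do not overlap, the exact two-sided permutation p over 252 relabellings is 0.00794, the smallest possible.

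Per-array values are given for 20 genes set by name and for the 3 called genes of each list with the largest change, and for Ucp3 since its probes disagreed. Of further lists, the largest 2 changes each way are named. The members, lists, markers and motifs were chosen with earlier results of these data known. Slides, scan days and replicate numbers were tried as blocks, and other alternatives are given in the closing part. Probe positions are those of the files, on mm9. Promoters are from RefSeq tables, and genes without an entry are Fabp4, Fabp5, Lpl, Adrb3, Scd1, Scd2, Dgat1, Dgat2, Cidea, Elovl3, Ppargc1b and Gyk. The number of arrays limits the precision.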

Additional observations from a re-analysis of the deposited data

Results flagged for a closer look

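In 52 groups of 5 arrays (23 genes and 3 list means, in sham and in PPE), 5 held an array that stood apart from the other 4, where chance gives about 5% of groups. Fabp5 read -0.15 on sham 3, with the next sham array at -0.65. Fasn read 1.20 on PPE 4, with the next PPE array at 0.27. Cidea read 6.71 on sham 1, with the next at 5.99, and Dio2 read 5.00 on sham 1, with the next at 4.07. Plin4 read 4.37 on PPE 2, with the next at 3.71. The fall of Fasn, Cidea, Dio2 and Plin4 and the rise of Fabp5 were called with each array left out in turn.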

How the results depend on the processing

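Median centring changed most: 0 of the 47 genes were higher and 2 lower (general fat 0 and 0, lipid synthesis 0 lower, brown fat 0 higher and 2 lower), and over all genes 408 were higher and 8 lower. It reversed the uncalled changes of Adipoq (0.35), Retn (0.39), Cidec (0.30), Fabp4 (0.13) and Scd2 (0.63). Zic1 was at 0.00 without sham 2 and without PPE 3, and between 0.00 and 0.05 over the arrays left out. Scale normalization between arrays gave 23 lower genes, with 2 lower and 1 higher in general fat. The scan day as a fixed block gave 35 lower, 10 of them general fat, with Lep, Cidec, Plin1 and Adrb3 added. The slide as a random block gave 34 lower, 9 of them general fat and 3 higher in brown fat; as a fixed block 9 general fat genes were lower and 1 higher, and 11 brown fat genes were lower and 3 higher. Brown fat had 12 lower genes from the deposited LogRatio, from the series matrix and under scale normalization, and 10 with only genes above background on all 10 arrays. An offset of 10 gave 3 higher brown fat genes, and the mean of probes gave 1. The replicate block gave 4 higher and 31 lower, with 1 general fat and 3 brown fat genes higher. Equal numbers did not pair the arrays, since their correlations were 0.29, -0.30, 0.16, -0.14 and 0.52, and 1 of 5 sham arrays correlated best with its own number. Leaving out 1 array gave 3 to 5 higher and 27 to 31 lower genes, with 1 to 2 higher and 4 to 6 lower in general fat, 9 to 11 lower in lipid synthesis, and 2 to 3 higher and 14 to 14 lower in brown fat. Without sham 5 and PPE 5 together, the arrays with the fewest red spots above background, chosen after seeing the data, 4 were higher and 28 lower, with 1 higher and 4 lower in general fat and 3 higher in brown fat. The cause was not tested in any of these. Genes near background (Lep, Lhx8, Zic1, Ppargc1b and Elovl3 in PPE) have the least certain changes.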
